A study of Mus musculus with 1073 samples.

Results

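The genes described here encode 8 proteins of the red cell membrane and of the skeleton beneath it: Slc4a1, Sptb, Ank1, Add2, Tmod1, Rhag, Rhd and Ermap. They were taken by name, with earlier results of these data known, and all 8 were among the 15967 genes of the filtered tables. Their RNA was followed in single cells of mouse embryos from 13 sorted populations. Each cell was captured on a Fluidigm C1 chip and its whole-transcript cDNA was sequenced, so reads fall along the length of each transcript. Of 1073 captured cells, 926 passed the filter of the study. Flk1-GFP/+ embryos gave the earliest cells, sorted for the GFP that reports Flk1 (Kdr), a receptor of mesoderm and endothelium, at E7.25 (73 and 74 cells in 2 sequencing lanes) and E7.75 (140 cells). The other populations came from C57BL/6 embryos. Haematopoietic progenitor cells (HPCs, which the labels call erythro-myeloid progenitors) were sorted as TER119- CDH5+ CD41+ at E8.25 (73 cells) and E8.5 (89 cells), and as TER119- CDH5- CD45+ CD41low at E9.5 (46 cells) and E10.5 (87 cells). Primitive erythrocytes (EryP) were sorted on TER119, a surface antigen of red cells, at E8.5 (66 cells) and E10.5 (3 cells). Megakaryocytes (Mk) were TER119- CDH5- CD41+ at E8.5 (37 cells) and TER119- CDH5- CD45- CD41high at E10.5 (73 cells). Macrophages (Mac, E10.5, 25 cells) and endothelial cells (Endo, 79 cells at E8.5 and 61 at E10.5) served as populations that should lack these proteins.

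The membrane of a red cell is held by a mesh of spectrin. Spectrin, of which Sptb encodes the beta chain, forms long tetramers that meet at short actin filaments, where adducin (Add2 is beta adducin) joins spectrin to actin and tropomodulin (Tmod1) caps the slow-growing filament end. Ankyrin (Ank1) ties beta spectrin to the anion exchanger band 3 (Slc4a1), which swaps chloride for bicarbonate. Rhag and Rhd sit in the same membrane complex as the Rh-associated glycoprotein, which passes ammonia or gas, and the Rh blood group protein. Ermap is an erythroid membrane-associated protein that carries the Scianna blood group antigens in humans. Primitive erythrocytes are the large nucleated red cells that arise in the yolk sac blood islands and mature while they circulate.

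RefSeq promoter windows (GRCm38.p6, 250 bases before to 50 bases after the start site) were held for 6 of the 8 genes, all but Ank1 and Slc4a1. They were searched on both strands for AGATAA, the letters of a form of GATA factor site, for CACCC, those of a KLF-type site, and for CAGNTG, those of an E-box. Other forms of these sites, such as TGATAA, were not searched and are not marked. CACCC was in the windows of 6 of 6 genes and in 57.5% of all 32851 windows, CAGNTG was in 3 of 6 (Add2, Rhd and Sptb) and in 51.4% of all, and AGATAA was in 1 of 6 (Rhd) and in 11.2% of all. The 250 bases upstream are shown for Sptb, which had a count in the largest share of E7.75 cells, for Rhag, which was in a larger share of HPCs at E10.5 than at E8.5 where Sptb was in a smaller one, and for Rhd, whose window held all 3 motifs, with the matches in capitals. Sptb lies at chr12:76710548-76710797 on the minus strand, Rhag at chr17:40810899-40811148 and Rhd at chr4:134864286-134864535, both on the plus strand.
Sptb: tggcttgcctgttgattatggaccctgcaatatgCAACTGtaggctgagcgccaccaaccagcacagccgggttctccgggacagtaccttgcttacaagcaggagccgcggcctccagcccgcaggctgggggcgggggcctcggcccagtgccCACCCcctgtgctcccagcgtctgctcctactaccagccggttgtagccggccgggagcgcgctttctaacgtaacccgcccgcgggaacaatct
Rhag: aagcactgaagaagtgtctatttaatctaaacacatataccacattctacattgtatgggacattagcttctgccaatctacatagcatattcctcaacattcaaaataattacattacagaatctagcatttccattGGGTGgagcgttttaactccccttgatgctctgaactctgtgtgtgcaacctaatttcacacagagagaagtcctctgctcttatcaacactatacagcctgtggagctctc
Rhd: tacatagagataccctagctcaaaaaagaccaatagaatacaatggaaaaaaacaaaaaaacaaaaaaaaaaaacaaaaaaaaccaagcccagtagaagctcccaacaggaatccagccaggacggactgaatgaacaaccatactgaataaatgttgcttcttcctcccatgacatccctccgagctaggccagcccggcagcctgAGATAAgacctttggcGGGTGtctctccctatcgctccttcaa
The capitals in the Sptb sequence are an E-box match that begins at base -216 from the start site and CACCC at base -95. Those in the Rhag sequence are CACCC read on the other strand at base -112, and those in the Rhd sequence are AGATAA at base -43 and CACCC on the other strand at base -27. The E-box match of Rhd lies past the start site, at base 30, and is not shown. Such a match describes the letters in the window only.

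The total counts of the 926 cells ran from 484539 to 5955450 with a median of 1890168. The labels name no embryo or animal, so each population is 1 sample, no test between populations was possible, and the intervals below cover counting error only. Lanes numbered 2 for each Flk1-GFP+ stage and 1 for every other population. A first flow cell held E7.25, E8.25 and E8.5 and a second held E7.75, E9.5 and E10.5, so differences between stages of the 2 sets and differences between sequencing runs cannot be told apart. The markers matched the labels for EryP, E10.5 Mk, Mac and Endo. For EryP this rests on the summed level of the 8 erythroid markers (median 107229 CPM at E8.5 and 521388 CPM at E10.5). All 8 were also found at E7.75, in E8.25 and E8.5 HPCs and in E8.5 Mk, so presence alone does not set EryP apart. The E8.5 Mk cells held the 5 megakaryocyte markers at a median summed level of 184 CPM (lowest 9.94, highest 1642), against 5331 CPM in E10.5 Mk (lowest 521, highest 20723). The same E8.5 cells held all 8 erythroid markers at a median summed level of 25933 CPM (lowest 724, highest 144497), between 469 CPM in E8.5 HPCs and 107229 CPM in E8.5 EryP. Here CPM is the scaled count deposited by the study, a cell's counts divided by its size factor and given per 1000000, and a population's level is the mean over its cells unless stated. A gene was called found in a population where 10% of its cells or more held at least 1 count.

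In E8.5 EryP all 8 genes were found in nearly every cell. Sptb and Add2 had a count in 66 of 66 cells (100%, exact 95% interval from 94.6%), Slc4a1, Ank1 and Ermap in 65 (98.5%, 91.8 to 100), Tmod1 in 63 (95.5%, 87.3 to 99.1), Rhd in 58 (87.9%, 77.5 to 94.6) and Rhag in 55 (83.3%, 72.1 to 91.4). No cell held fewer than 6 of the 8, and 46 of 66 held all 8. Rhag and Rhd were the members most often without a count.

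**Figure D1:**
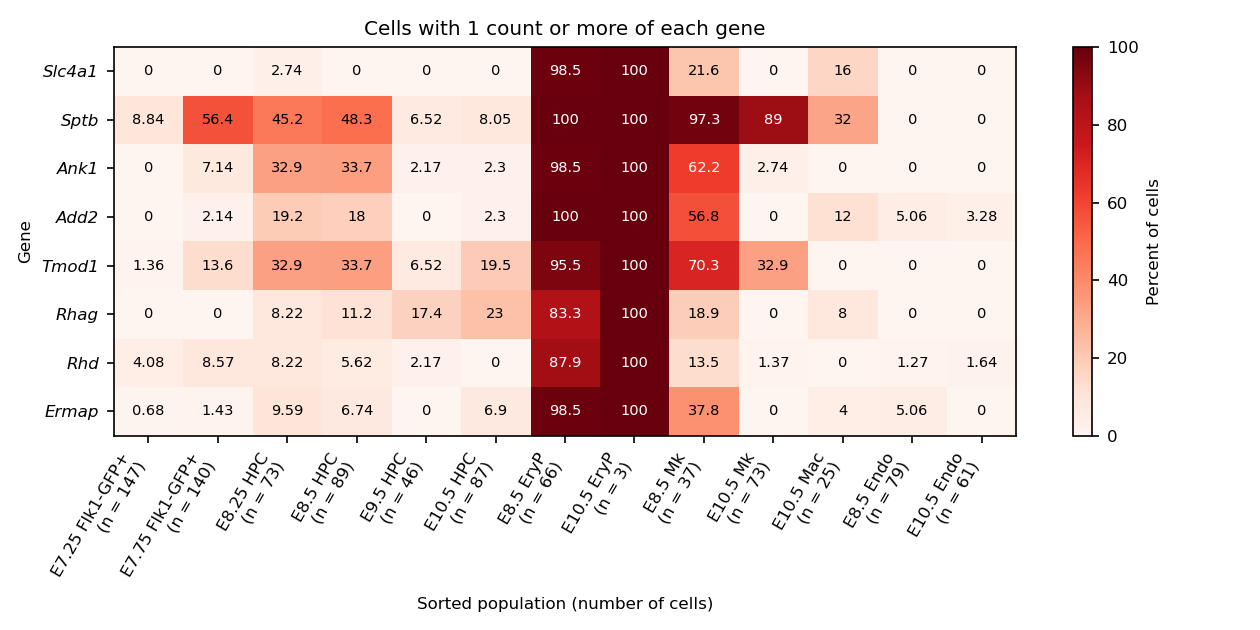
Percent of cells (colour and number) with 1 count or more of each of the 8 genes (rows) in the 13 sorted populations (columns, with the number of cells). The EryP columns run from 83.3% to 100%, Sptb is the row filled earliest (56.4% at E7.75), and the Endo columns stay at or below 5.06%.

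Levels in EryP varied more between cells than presence did. The mesh genes Sptb and Add2 had a lowest, median and highest E8.5 EryP cell of 6.01, 176 and 594 CPM and of 1.59, 178 and 768 CPM. Ank1 ran from 0 through a median of 60.0 to 476 CPM, and Tmod1 from 0 through 126.9 to 664 CPM. Of the membrane proteins, Slc4a1 ran from 0 through 154.9 to 901 CPM and Ermap from 0 through 212 to 860 CPM. Rhag ran from 0 through 121.6 to 1176 CPM, and Rhd ran from 0 through 47.2 to 440.0 CPM. The highest cell of each gene was thus several times its median.

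Only a level per length can be compared between genes, because longer transcripts give more reads. Per kilobase of exons, mean E8.5 EryP levels were 94.8 CPM for Rhag, 51.6 for Rhd, 43.7 for Ermap, 41.0 for Tmod1, 40.7 for Slc4a1, 20.6 for Add2, 14.5 for Sptb and 6.98 for Ank1. The 3 long genes of the spectrin and ankyrin attachment were thus at the foot of the order and the Rh genes at the top. The order of Tmod1, Slc4a1 and Ermap rests on differences much smaller than the spread of the cells. Tmod1 shares 1287 of its 3946 exon bases with Tstd2 on the opposite strand, Ank1 shares 862 of 13527 with Gm15816 and Add2 shares 356 of 10139 with Gm44089. The library kit does not mark strand, so reads in these stretches cannot be assigned to either gene. Tstd2 itself stood at 18.1 CPM in E8.5 EryP and 21.3 in E8.5 HPCs.

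The 3 E10.5 EryP cells that passed the filter held all 8 genes, at levels that differed widely between them. Sptb stood at 270, 1114 and 804 CPM, and Ermap at 243, 2035 and 62.2 CPM. Add2 stood at 123.1, 1.42 and 859 CPM, and Rhag at 698, 910 and 0.996 CPM. Slc4a1 stood at 702, 167 and 141.4 CPM, Tmod1 at 272, 327 and 123.977, Rhd at 238, 546 and 54.3, and Ank1 at 203, 12.1 and 3.49 CPM. Each of the 3 cells was thus high for some members and near 0 for another, other than the first, which was above 100 CPM for all 8. The mean over these cells is above that at E8.5 for 7 genes and below it for Ank1 (73.0 against 94.4 CPM), and with 3 cells no order of the stages is read from it. The interquartile ranges of the E8.5 and E10.5 cells overlapped for Slc4a1, Ank1, Add2, Tmod1 and Ermap and did not overlap for Sptb, Rhag and Rhd.

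Against E8.5 HPCs, all 8 genes passed the filter on low values (a mean of 10 CPM or more in either population) and all 8 were 4-fold or more higher in E8.5 EryP, where 2.51% of the 8962 genes compared were. The log2 ratio of means, with 1 CPM added to each, was smallest for Sptb (2.70, 176 against 26.2 CPM) and Tmod1 (3.27, 162 against 15.9 CPM). It was 4.21 for Ank1, 4.94 for Add2, 5.27 for Rhd, 5.51 for Rhag and 6.76 for Ermap. Slc4a1 had no count in 89 HPCs, where 3 counts, the upper limit for a count of 0, would be 3.37% of cells. Its EryP mean of 199 CPM was 8669-fold the level that 3 counts over the HPC group would give. Ank1, Add2, Rhag, Rhd and Ermap also averaged under 10 CPM in HPCs (4.16, 5.85, 3.88, 1.16 and 1.14 CPM). Like Slc4a1 they passed the filter through EryP alone, and only Sptb and Tmod1 reached 10 CPM in both populations. For Slc4a1, Rhd and Ermap, so low in HPCs, passing the filter in that way was enough for the call. The interquartile ranges of the cells did not overlap for any of the 8. The median log2 ratio over the members was 5.10 and over all genes compared 0.05. By ratio, beta spectrin and tropomodulin thus differed least between progenitor and red cell and the band 3 gene differed most.

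The mesh gene Sptb had a count in the largest share of the earliest cells. At E7.25 it had a count in 13 Flk1-GFP+ cells (8.84%, 4.79 to 14.6), with 5 of 73 cells of lane 6 and 8 of 74 of lane 7. At E7.75 it had a count in 79 of 140 cells (56.4%, 47.8 to 64.8), and in 40 cells (28.6%) it had 10 counts or more. The cells ran from 0 through a median of 0.495 to 487 CPM, a skewed spread in which few cells carried most of the reads. Both E7.75 lanes showed it, with 28 of 53 cells in lane 7 (mean 38.8 CPM) and 51 of 87 in lane 8 (mean 13.5 CPM). The exact intervals of these shares overlap (38.6% to 66.7% and 47.6% to 69.1%), and the mean level was higher in the deeper lane (median total count 2764815 against 1623886).

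Sptb was also the only member to pass the filter between E7.25 and E7.75. Its mean went from 2.17 to 23.1 CPM, a log2 ratio of 2.93, where 1.08% of 8888 genes were 4-fold or more higher at E7.75. The other 7 genes stayed below a mean of 10 CPM at both stages. Tmod1 was the second to be found, in 19 of 140 E7.75 cells (13.6%, 8.37 to 20.4) against 2 cells at E7.25, though in 9.84% of the cells thinned to 840000 counts, just under the level called found. Ank1 had counts in 10 E7.75 cells (7.14%), Rhd in 12 (8.57%, against 6 cells at E7.25), Add2 in 3 and Ermap in 2. Slc4a1 and Rhag had none in 140 cells, an upper limit of 2.14%. The 3 Add2 and 2 Ermap cells were all in the deeper lane 7. Per kilobase of exons, mean E7.75 levels were 1.90 CPM for Sptb, 0.828 for Tmod1 and 0.690 for Rhd, and at E7.25 they were 0.179 for Sptb and 0.238 for Rhd, so by level Sptb did not lead at E7.25.

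At E7.75, where 79 of 140 cells held Sptb, most cells with a count of another member also held it. All 10 Ank1 cells, 3 Add2 cells and 2 Ermap cells held it, as did 15 of 19 Tmod1 cells and 8 of 12 Rhd cells. The Rhd share was not far above that over all cells, and Add2 and Ermap rest on few cells. Of the 57 cells with a single member, that member was Sptb in 51. Klf1, an erythroid transcription factor, had a count in 50 cells, of which 42 held Sptb. Conversely 37 of the 79 Sptb cells had no count of Klf1. Alas2, the first enzyme of haem synthesis in red cells, had a count in 52 cells, of which 38 held Sptb.

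**Figure D2:**
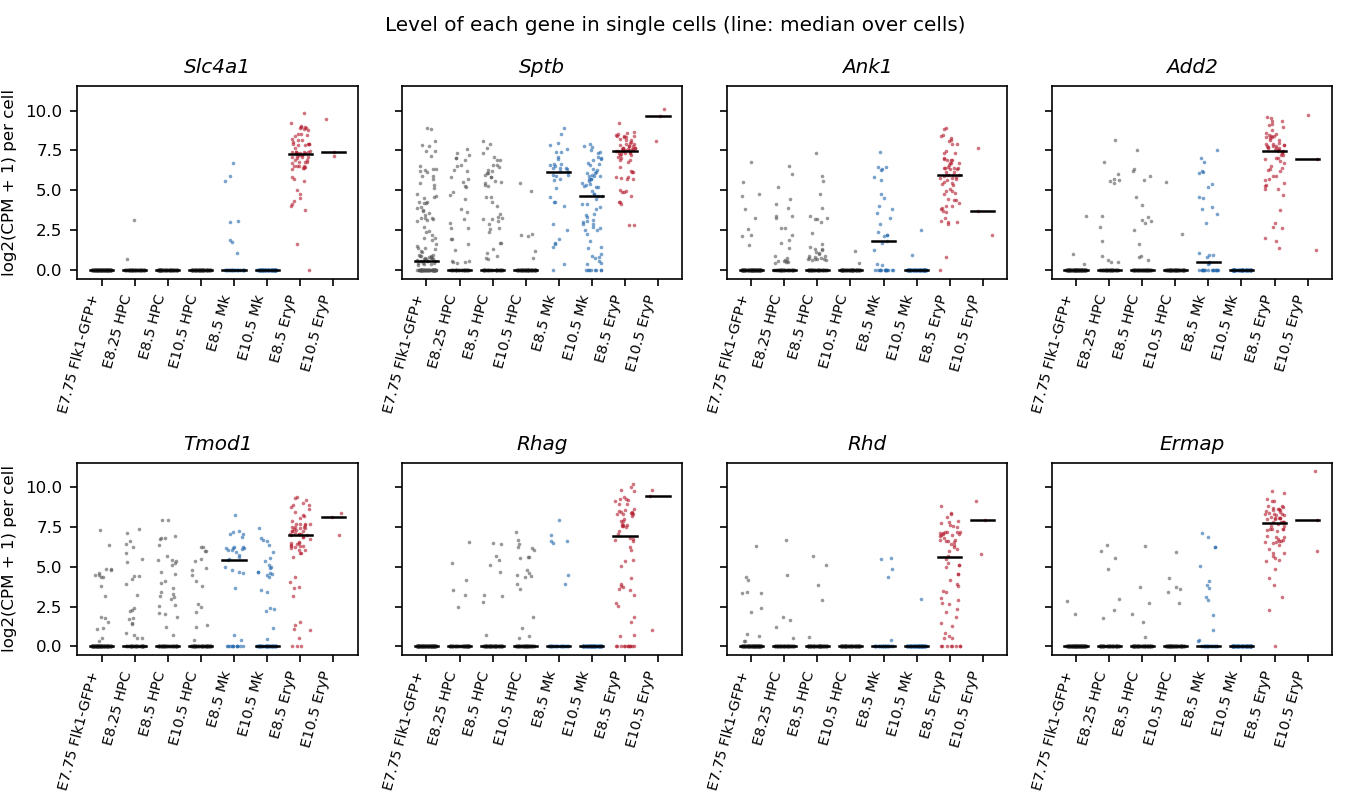
Level of each gene, as log2 of CPM plus 1, in single cells of 8 populations (points, 1 per cell; black line, median over cells; grey, Flk1-GFP+ cells and HPCs; blue, Mk; red, EryP). Sptb is the panel with the most cells above 0 at E7.75 and in both Mk populations, and only the EryP medians are above 0 for Slc4a1, Rhag, Rhd and Ermap.

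In E8.25 and E8.5 HPCs Sptb, Tmod1, Ank1 and Add2 each had a count in more cells than any of the 4 membrane genes. Sptb had a count in 33 of 73 cells at E8.25 (45.2%) and 43 of 89 at E8.5 (48.3%, 37.6 to 59.2). Tmod1 and Ank1 each had a count in 24 of 73 cells (32.9%) and 30 of 89 (33.7%, 24.0 to 44.5), and Add2 in 14 (19.2%) and 16 (18.0%). Rhag had a count in 6 cells at E8.25 and 10 at E8.5 (11.2%, 5.52 to 19.7). Rhd had one in 6 and 5 cells, Ermap in 7 and 6, and Slc4a1 in 2 and 0. By the 10% rule 4 members were found at E8.25 and 5 at E8.5. Longer transcripts are detected more readily, and the order by level per kilobase differed. In E8.5 HPCs it was 4.03 CPM for Tmod1, 2.16 for Sptb, 1.66 for Rhag, 0.725 for Rhd, 0.577 for Add2, 0.307 for Ank1 and 0.215 for Ermap, so the Rh genes stood above Add2 and Ank1.

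Levels in these HPCs were carried by a minority of cells. At E8.5 the median cell was at 0 CPM for all 8 genes, while the highest reached 266 CPM for Sptb, 247 for Tmod1, 183 for Add2 and 160 for Ank1. Most of the Ank1 cells held only a few reads: 7 of 89 had 10 counts or more. Between E8.25 and E8.5 no member was 4-fold or more higher, where 0.349% of 8879 genes were, and only Sptb and Tmod1 passed the filter (log2 ratios of 0.28 and 0.50). Against E8.5 Endo, sorted on CDH5 without CD41, Sptb and Tmod1 again were the members past the filter and both were 4-fold or more higher in E8.5 HPCs, where 2.87% of 9433 genes were. Neither had a count in 79 Endo cells (upper limit of 3.80%), so both passed the filter through the HPC group alone, and a gene that passes it in that way is called by construction. The HPC means were 1185-fold and 718-fold the level of 3 counts over the Endo group. Add2 did not follow, with 5.85 CPM in HPCs and 7.31 in Endo, the latter from 4 cells with a highest of 356 CPM.

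Sptb, Tmod1, Ank1 and Add2 were often found in the same HPCs. At E8.5, 23 of 30 Tmod1 cells, 20 of 30 Ank1 cells and 15 of 16 Add2 cells also held Sptb, in a population where 43 of 89 cells did. Of 10 Rhag cells and 5 Rhd cells, 7 and 4 held Sptb, but Rhag and Rhd shared 1 cell. Of 89 cells, 31 held no member, 25 held 1 and 5 held 5 or more. Over the 89 cells, the summed level of the 8 genes correlated with the summed embryonic globins Hbb-bh1, Hba-x and Hbb-y (Pearson r = 0.80, Spearman rho = 0.81, on log2 CPM plus 1) and over the 73 E8.25 cells likewise (r = 0.84, rho = 0.81). With Pf4, a platelet chemokine gene, r was 0.14 and -0.04. With the total count of the cell r was -0.15 and -0.13. These correlations are descriptions over cells of 1 library each that share capture and scaling.

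At E9.5 and E10.5 the skeleton genes were found in fewer HPCs and Rhag in more. Sptb had a count in 3 of 46 cells at E9.5 (6.52%) and 7 of 87 at E10.5 (8.05%, 3.30 to 15.9). Ank1 had one in 1 and 2 cells, Add2 in 0 and 2, Rhd in 1 and 0, Ermap in 0 and 6, and Slc4a1 in none. Tmod1 was in 3 cells at E9.5 (6.52%) and 17 at E10.5 (19.5%, 11.8 to 29.4). Rhag was in 8 of 46 cells (17.4%, 7.82 to 31.4) and 20 of 87 (23.0%, 14.6 to 33.2), and its mean was 2.32, 3.88, 6.82 and 9.48 CPM from E8.25 to E10.5. Its E8.5 and E10.5 intervals overlap, and at every stage the median HPC was at 0. From E8.5 to E10.5 only Sptb and Tmod1 passed the filter. Sptb was 4-fold or more lower, from 26.2 to 0.970 CPM (log2 ratio -3.79), where 2.96% of 9184 genes were, and Tmod1 went from 15.9 to 5.51 CPM (-1.38). So low at E10.5, Sptb passed the filter through the E8.5 cells alone and was called by construction. With 10 CPM added the Sptb ratio was -1.72, short of 4-fold, and the median cell was at 0 at both stages.

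Of the 20 Rhag cells among the E10.5 HPCs, 9 held Tmod1, 5 held Sptb and 12 held Klf1, and none held Alas2. Over all 87 cells 17 held Tmod1, 7 Sptb, 23 Klf1 and 7 Alas2, so its absence from the Rhag cells rests on few Alas2 cells. Rhag was the single member in 8 of the 18 E10.5 HPCs with just 1, and Tmod1 in 7. The erythroid markers had a median summed level of 108.7 CPM in this population, against 469 CPM in E8.5 HPCs, and the 4 macrophage markers were all found in it, whereas 1 of 4 was at E8.5. The gate also differed between these stages (CDH5+ CD41+ at E8.5, CD45+ CD41low at E10.5). The part of gate, run and cell composition in the differences of the members was not tested.

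**Figure D3:**
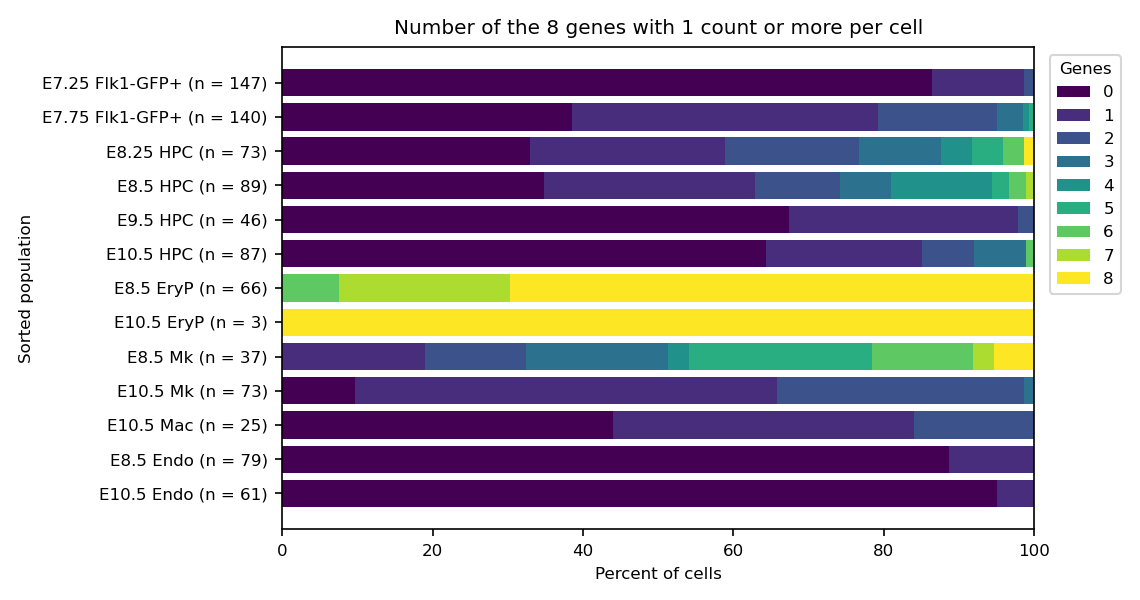
Percent of cells of each population (rows, with the number of cells) that held 0 to 8 of the 8 genes, by colour. E8.5 EryP cells hold 6 to 8, E8.5 Mk cells spread from 1 to 8, and 65 of 73 E10.5 Mk cells hold 1 or 2.

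E8.5 Mk cells held members at shares between those of HPCs and EryP. Sptb had a count in 36 of 37 cells (97.3%, 85.8 to 99.9), Tmod1 in 26 (70.3%), Ank1 in 23 (62.2%), Add2 in 21 (56.8%) and Ermap in 14 (37.8%). Slc4a1 had one in 8 cells (21.6%, 9.83 to 38.2), Rhag in 7 (18.9%) and Rhd in 5 (13.5%). All 8 were thus found. These cells were deeper (median total 3538303 against 1559151 in E8.5 HPCs). Thinned to 840000 counts, the shares were 91.9% for Sptb, 64.9% for Tmod1, 54.1% for Ank1 and 48.6% for Add2, all above their thinned shares in E8.5 HPCs (48.3%, 32.6%, 25.8% and 18.0%).

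Mean levels in E8.5 Mk were 91.0 CPM for Sptb, 51.0 for Tmod1, 21.7 for Add2, 19.6 for Ank1, 18.5 for Rhag, 13.5 for Ermap, 6.20 for Slc4a1 and 3.78 for Rhd. Per kilobase the order was Tmod1 (12.9 CPM), Rhag (7.91), Sptb (7.49), Ermap (2.55), Rhd (2.37), Add2 (2.14), Ank1 (1.45) and Slc4a1 (1.27). Against E8.5 HPCs 6 members passed the filter. Rhag and Ermap were 4-fold or more higher (log2 ratios 2.00 and 2.76), where 1.22% of 8963 genes were, and Ank1 fell just short of 4-fold on this scale (19.6 against 4.16 CPM). Sptb (1.76), Add2 (1.73) and Tmod1 (1.62) were also higher by ratio without reaching it. The Rhag ratio was 1.91 with CPM taken from each cell's own total, so that it no longer reached 4-fold, and it rests on 7 of 37 cells. Rhag and Ermap both passed the filter through Mk alone, and Ermap, at 1.14 CPM in HPCs, was called by construction. Against E8.5 Mk, E8.5 EryP were 4-fold or more higher for 6 of 8 members, where 1.99% of 8651 genes were. The exceptions were the skeleton genes Sptb (log2 ratio 0.94) and Tmod1 (1.65), whose interquartile ranges of 18.3 to 101.1 and 0 to 70.1 CPM in Mk overlapped those in EryP.

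The members in E8.5 Mk cells moved with erythroid RNA. Over the 37 cells their summed level correlated with the summed embryonic globins (r = 0.47, rho = 0.66), whereas r was -0.16 (rho = -0.11) with Pf4 and 0.01 with total counts. A count of Alas2 was held by 35 of 37 cells, at a mean of 356 CPM. All 8 Slc4a1, 7 Rhag, 5 Rhd and 14 Ermap cells held it. Pf4 had a count in 31 of 37 cells, at a mean of 163 CPM, against 4902 CPM in E10.5 Mk. Cells ranged from 1 member (7 cells) to all 8 (2 cells), and 17 held 5 or more. The part of erythroid RNA in the levels of the members was not tested.

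**Figure D4:**
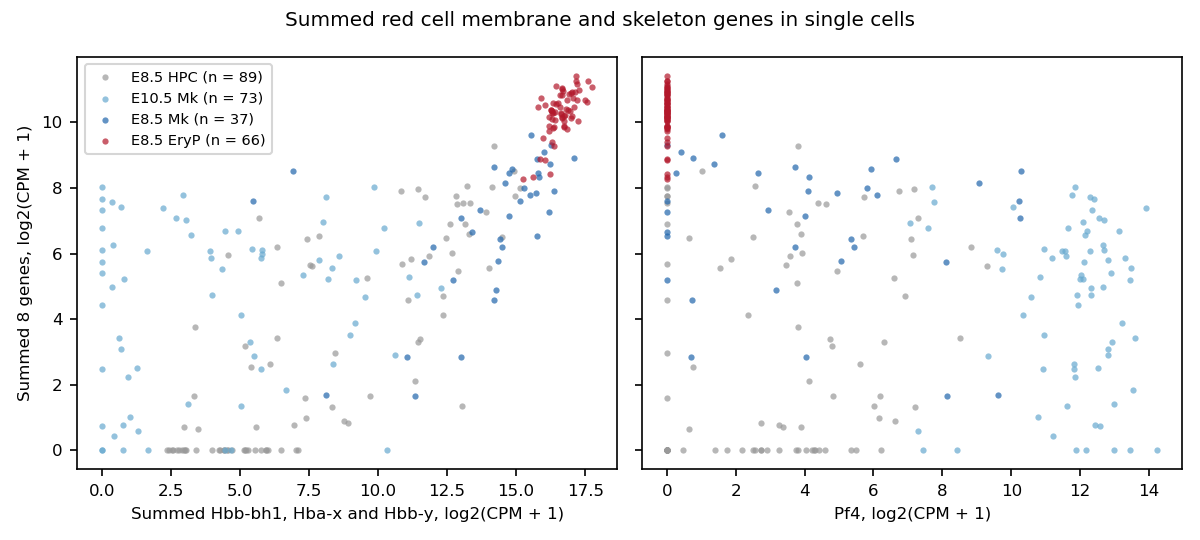
Summed level of the 8 genes against summed embryonic globins (left) and Pf4 (right), all as log2 of CPM plus 1, in single cells of 4 populations (points, colour by population, number of cells in the legend). E8.5 Mk cells lie along the globin axis between HPCs and EryP (r = 0.47 within Mk), and E10.5 Mk cells hold members at high Pf4 with few globin reads.

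In E10.5 Mk the set was reduced to Sptb and Tmod1. Sptb had a count in 65 of 73 cells (89.0%, 79.5 to 95.1), with a lowest, median and highest cell of 0, 23.5 and 236 CPM and a mean of 45.2 CPM. Tmod1 had one in 24 cells (32.9%, 22.3 to 44.9), with a mean of 13.2 CPM. Ank1 had single counts in 2 cells and Rhd had 16 counts in 1 cell. Slc4a1, Add2, Rhag and Ermap had none in 73 cells (exact 95% interval up to 4.93%). Of the 41 cells with just 1 member 40 held Sptb, and of the 24 with 2 members 22 held Sptb and Tmod1. From E8.5 to E10.5, 6 members passed the filter and 4 were 4-fold or more lower in Mk, where 3.26% of 8983 genes were. The 4 were Ank1 (log2 ratio -4.26), Add2, Rhag and Ermap. The E8.5 means of Add2, Rhag and Ermap were 642-fold, 548-fold and 400-fold the level of 3 counts over the E10.5 group. These 3 had no count at E10.5, and Ank1 stood at 0.0772 CPM there. All 4 thus passed the filter through the E8.5 cells alone and were called by construction. With 10 CPM added none of the 4 reached 4-fold (log2 ratios from -1.66 to -1.23), and with the median over cells 1 member was called. Sptb (-0.99) and Tmod1 (-1.87) were not. Over the same interval the median summed erythroid markers went from 25933 to 403 CPM, and its part in the difference of the members was not tested.

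The median summed level of the erythroid markers was lower in E10.5 Mk than in E8.5 Mk and higher than in E10.5 HPCs, though single markers differed in direction. The summed level of the members, which is nearly all Sptb and Tmod1, had r = 0.15 (rho = 0.05) with the summed embryonic globins over 73 cells, and Alas2 had a count in 3 cells. The erythroid markers had a median summed level of 403 CPM in E10.5 Mk and 108.7 CPM in E10.5 HPCs, and 3 of the 8 were 4-fold or more higher in Mk: Hbb-bh1 (315 against 4.11 CPM), Hbb-y (14.3 against 1.41) and Epor, the erythropoietin receptor (25.0 against 3.62). By share of cells, Klf1 and Alas2 went the other way. Klf1 had a count in 2 of 73 E10.5 Mk cells and 23 of 87 E10.5 HPCs, and Alas2 in 3 and 7. The part of the erythroid markers in the members' levels was not tested. Compared with E10.5 HPCs, Sptb was 4-fold or more higher in E10.5 Mk (45.2 against 0.970 CPM, log2 ratio 4.55), where 6.08% of 9241 genes were, with interquartile ranges that did not overlap. It passed the filter through Mk alone and, at its level in HPCs, was called by construction. Tmod1, the other member past the filter, had a ratio of 1.13. Rhag went the other way, from 9.48 CPM in HPCs to no count in Mk, although it fell under the filter. Against E10.5 Mk, the 3 E10.5 EryP cells were 4-fold or more higher for all 8 members, where 7.86% of 8751 genes were. Slc4a1, Add2, Rhag and Ermap had no count in Mk, and Ank1 and Rhd stood at 0.0772 and 0.0915 CPM there. These were called by construction, and only Sptb and Tmod1 passed the filter in both populations. The median log2 ratio of all genes in that comparison was -1.30, and the smallest ratio among the members was 3.98 for Sptb. With all 25 captured E10.5 EryP cells, including 22 that failed the filter, the ratio was 1.81 for Sptb and 0.86 for Tmod1, which then no longer reached 4-fold.

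The size of the constant added to each mean decided other calls of members at low levels too. With 10 CPM added in place of 1, Sptb at E7.75 against E7.25 had a log2 ratio of 1.44, Sptb and Tmod1 in E8.5 HPCs against Endo 1.86 and 1.37, and Ermap in E8.5 Mk against HPCs 1.08, so that none of these reached 4-fold. The 8 members in E8.5 EryP against HPCs all still did.

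Background shares were low in Endo and less so in Mac. At E8.5 and E10.5 no member was found in Endo, and Sptb, Slc4a1, Ank1, Tmod1 and Rhag had no count in either. Of 25 Mac cells (median total 3428065), Sptb had a count in 8 (32.0%, 14.9 to 53.5), Slc4a1 in 4 (16.0%) and Add2 in 3 (12.0%). The Slc4a1, Add2, Rhag and Ermap reads there were 4, 3, 2 and 1 in all, and thinned to 840000 counts Sptb was in 12.0% and Slc4a1 in 4.00% of cells. Most of the 771 Sptb counts came from 1 cell at 104.8 CPM. The Mac cells shared a sequencing lane with the E10.5 EryP cells, and the part of that sharing was not tested. For Rhag, Rhd and Ermap these background populations held 0 to 4 cells with a count each. In E8.25 and E8.5 HPCs, 6 and 10 cells had a count of Rhag, 6 and 5 of Rhd, and 7 and 6 of Ermap. Of these HPCs, 6 and 8 Rhag cells, 2 and 3 Rhd cells, and 4 and 3 Ermap cells held 10 counts or more. The 1 E8.5 Endo cell with a Rhd count carried the whole mean of 0.382 CPM over 79 cells, so the Rhd background was not only cells of a few reads.

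Other genes of the membrane complexes were counted from lists of known red cell proteins. Of 7 genes of the anion exchanger and ankyrin complex (4 of them members), 6 were 4-fold or more higher in E8.5 EryP than in E8.5 HPCs and Cd47 was lower. Of all 8962 genes compared, 2.51% were higher and 9.86% lower, so single lower genes in these lists are near the share over all genes. Beside the members these were Epb42, protein 4.2 (260 against 5.75 CPM), and Icam4, the Landsteiner-Wiener glycoprotein (36.0 against 2.46). Of 12 genes of the spectrin and actin junction, 4 were higher (Sptb, Add2, Tmod1 and Dmtn) and Add3, gamma adducin, was lower. Dmtn, dematin, stood at 44.7 against 9.49 CPM. Of the 16 other surface and transport proteins, 13 passed the filter, 8 were higher and Cd44 was lower. The highest ratios there, beside Ermap, were those of Kel, the Kell blood group protease (log2 ratio 5.66), and Tspan33 (3.69). Xk, the partner of Kel, Slc2a1 and Slc29a1, transporters of glucose and nucleosides, Kcnn4, the calcium-gated potassium channel, and Stom, stomatin, had log2 ratios between 2.00 and 2.82.

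In E8.5 Mk against E8.5 HPCs, 2 of 7 (Epb42 and Rhag), 0 of 12 and 4 of 16 (Ermap, Kel, Xk and Tspan33) of these lists were 4-fold or more higher and none was lower, against 1.22% higher and 4.8% lower of all 8963 genes. In E10.5 Mk, Dmtn stood at 16.0 CPM, 4-fold or more above the 1.07 CPM of E10.5 HPCs, whereas Epb42 was at 1.28 and Kel at 0.00741 CPM.

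The spectrin paralogues that serve other cells were low in EryP, where Sptb was high. Sptbn1, the beta spectrin of non-erythroid cells, was at 811 CPM in E8.5 HPCs and 65.4 in E8.5 EryP (log2 ratio -3.61), and Sptan1, its partner in those cells, at 88.2 and 1.23 CPM (-5.32). Per kilobase of exons, Sptb was 4.45% of the sum of Sptb and Sptbn1 in E8.5 HPCs, 27.5% in E8.5 Mk, 11.4% in E10.5 Mk and 79.4% in E8.5 EryP. Per kilobase of the longest transcript these shares were 2.76%, 18.7%, 7.29% and 70.2%, so they depend on the length used.

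Adducin and ankyrin had their own patterns. Add2 was 5.33% of the sum of Add2 and Add3 per kilobase in E8.5 HPCs and 94.7% in E8.5 EryP, while Add1, the alpha adducin that pairs with either, was at 116.3 and 143.96 CPM. Ank1 was 94.3% of the sum of Ank1 and Ank3 in E8.5 EryP, 27.4% in E8.5 Mk and 0.0737% in E10.5 Mk, where Ank3 reached 269 CPM against 5.93 in E10.5 HPCs. Per kilobase of the longest transcript these Ank1 shares were 88.4%, 14.9% and 0.0341%. Tmod3 differed little, with 210, 258, 191 and 175 CPM in E8.5 HPCs, E8.5 Mk, E10.5 Mk and E8.5 EryP. Slc4a2, the anion exchanger of other tissues, was at 4.79 CPM in E8.5 HPCs and 4.90 in E8.5 EryP, so Slc4a1 was added there with no matching difference in its paralogue.

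**Figure D5:**
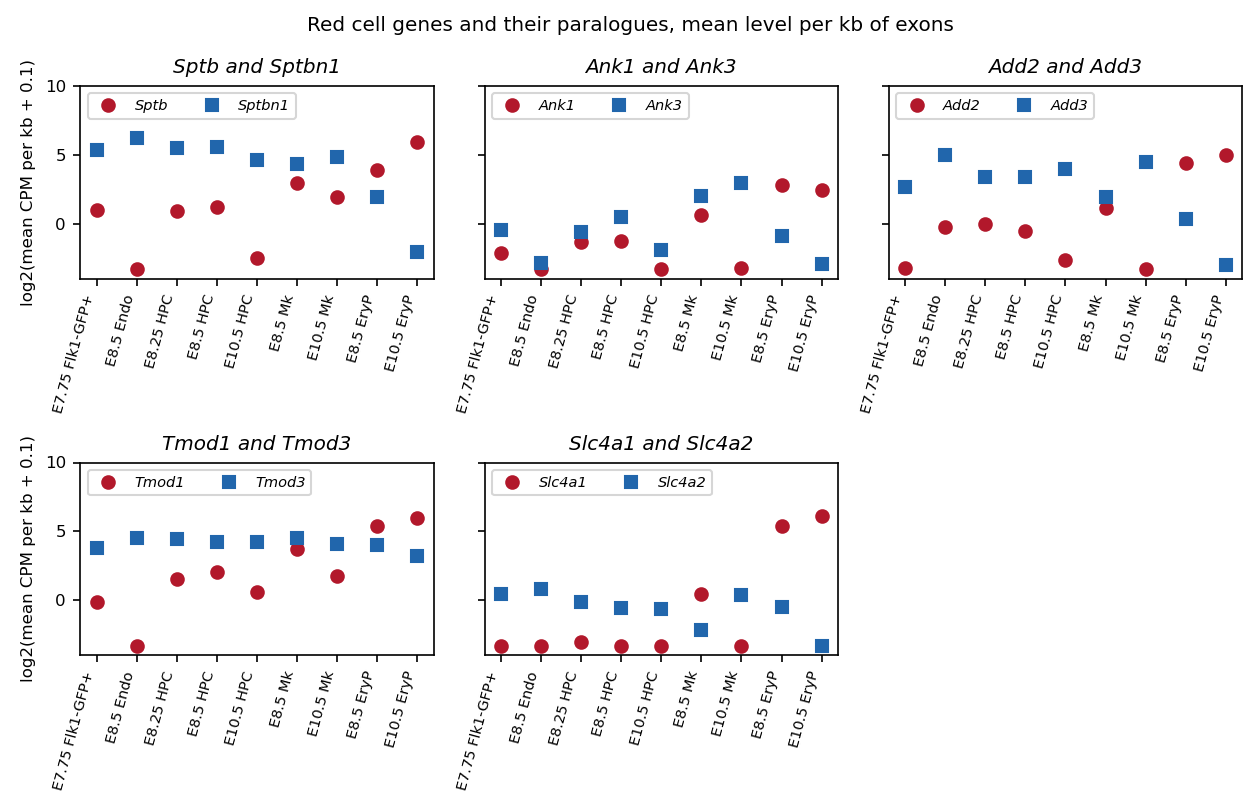
Mean level per kilobase of exons, as log2 of CPM per kb plus 0.1, of 5 members (red circles) and a paralogue of each (blue squares) in 9 populations. The red points lie above the blue ones in both EryP columns of every panel, and in E8.5 Mk this holds for Slc4a1 only.

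The genes whose means were most like those of the members were ranked by Pearson r of log2 mean CPM plus 1 over the 12 populations with 25 or more cells, among 10316 genes. For the skeleton genes they were Mpp2 (r = 0.96), Hbb-bh1 and Cited4 for Sptb, Hbb-bt (0.96) and Hemgn for Tmod1, Epb42 (0.98), Hba-a2 and Slc25a21 for Ank1, and Slc25a37 (0.94), Alad and Fam210b for Add2. For the membrane genes they were Hbq1b (0.96), Slc25a21 and Cdc42ep3 for Slc4a1, Acp5 (0.95), Kcnn4 and Nsun5 for Rhag, Abcg4 (0.98), Slc25a21 and Asb17 for Rhd, and Slc25a21 (0.98), Tmem56 and Hbq1b for Ermap. Slc25a21 was thus in the lists of 4 of the 8. These populations share runs and scaling, and the E8.5 EryP point lies far above the rest for the members.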

How the data were processed

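Single cells of 13 sorted populations were captured on Fluidigm C1 chips, and Nextera XT libraries, which do not mark strand, were sequenced on a HiSeq with paired reads of 100 bases. The authors aligned reads to the mouse genome (GRCm38) with Subread and deposited counts per gene from featureCounts, for all captured cells and for the 926 cells and 15967 genes that passed their filter. They also deposited a signal per gene and cell, counts per 1000000 (CPM) after scran size factors, whose sums per cell run from 699615 to 4176737. Tool versions are not given in the sources used here.

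Cells were grouped by their labels. Each cell is a column, the labels name no animal, and replicate numbers are cell numbers, so each population was treated as 1 sample and no test was run. Shares of cells were taken from deposited counts with exact Clopper-Pearson 95% intervals. Levels are means of deposited CPM. Differences between populations are log2 ratios of mean CPM plus 1 for genes whose mean reached 10 CPM in at least 1 of the populations compared, and a gene was called at 4-fold or more. Where a group held no count, the level of 3 counts over the group stood in. That level treats reads as independent, though 1 cell can hold many, so a fold against it is not a lower limit. For 10 comparisons the share of all genes called is given beside the members. Cells were thinned to 840000 counts where depth could set a share, and 46 shallower cells were left out of the thinned values. Lengths and overlaps are from GENCODE M21 (GRCm38). The 84 genes of 10 lists, of which 73 were in the filtered tables, were fixed as known proteins and markers. The genes named are all members, the genes of the red cell lists that differed by 4-fold or more between E8.5 EryP or E8.5 Mk and E8.5 HPCs with their values elsewhere, their paralogues, and for each member the 3 genes of most like pattern. The members, lists and comparisons were chosen with earlier results of these data known. The ratio and interval code was tested on simulated data. No 2 cells had identical values, and the index pairs were reused between lanes (96 of 96 pairs). Certain list genes are not reported here. No doublet caller was run here. Alternatives were CPM from own totals, the median over cells, 10 CPM added, no filter on low values, all captured cells, 10 counts or 25% of cells as limits, thinned cells, the longest transcript as length, and 1 sequencing lane left out. Intervals cover counting error only. Python 3.11.15, numpy 2.4.6, pandas 2.3.3 and scipy 1.17.1 were used.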

Additional observations from a re-analysis of the deposited data

Results flagged for a closer look

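From E8.5 to E10.5 some members went up in the mean of 1 lineage and down in another by a log2 ratio of 1 or more each way, and with 1 sample per population the difference was not tested. Rhag had log2 ratios (E10.5 over E8.5, mean CPM plus 1) of 1.10 in HPCs, -4.29 in Mk and 1.27 in EryP. Sptb had -3.79 in HPCs and 2.05 in EryP, Rhd had -1.11 in HPCs, -2.13 in Mk and 1.75 in EryP, and Ermap had -3.86 in Mk and 1.75 in EryP. The means of Rhag and Rhd in HPCs and of Rhd in Mk were under 10 CPM at both stages. The E10.5 EryP values rest on 3 cells that differed widely, so no order of the EryP stages is read from them, the HPC gate differed between the stages, and the stages were sequenced on different flow cells.

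The 22 captured E10.5 EryP cells that the filter left out, which the comparisons do not use, held all 8 genes above the level in the 16 left-out Mac cells of the same sequencing lane. Summed over the 22 cells, counts per 1000000 counts were 280.5 for Slc4a1, 194 for Sptb, 152.3 for Ank1, 191 for Add2, 11.0 for Tmod1, 312 for Rhag, 159 for Rhd and 451 for Ermap, against at most 0.124 for any member in the left-out Mac cells. Single cells carried much of these sums: 3581 of 4507 Sptb counts, 3126 of 3688 Rhd counts, 240 of 256 Tmod1 counts and 3851 of 7251 Rhag counts came from 1 cell each, and the median cell was at 2.49, 0.740, 0 and 2.39 counts per 1000000. The median cell was at 17.8 for Slc4a1 and 13.7 for Ermap. These cells had between 1437 and 4915 genes with a count, against 5444 to 5750 in the 3 cells kept, and total counts from 27656 to 3606368. Of the 22 cells, 20 had a count of Ermap, 19 of Slc4a1, 16 of Rhag, 15 of Sptb and of Add2, 14 of Ank1, 11 of Rhd and 10 of Tmod1.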

How the results depend on the processing

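No paired analysis was possible because the replicate numbers are cell numbers within a population. With 1 sample per population, the alternatives show only how the values depend on the processing. No log2 ratio of a called member changed sign under any alternative run, and 200 of 229 single ratios stayed on their side of 4-fold. The counts of members called in E8.5 EryP over E8.5 HPCs (8), in E8.5 EryP over E8.5 Mk (6) and in E10.5 EryP over E10.5 Mk (8) stayed within 1.5 times under the 5 alternatives run.

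With the median over cells as the level, the count called higher was 0 (from 1) at E7.75 over E7.25 and 0 (from 2) in E8.5 HPCs over Endo, and the count called lower was 0 (from 1) in E10.5 over E8.5 HPCs and 1 (from 4) in E10.5 over E8.5 Mk. With 10 CPM added these 4 counts were all 0, as was that of E8.5 Mk over HPCs (from 2). With no filter on low values they were 2, 4 and 3 for the first 3, and 1 (from 0) was lower in E10.5 Mk than in HPCs. With CPM from each cell's own total, 1 (from 2) was higher in E8.5 Mk over HPCs and 1 (from 0) lower in E10.5 Mk over HPCs. With all captured cells, 0 were higher in E8.5 Mk over HPCs, with Rhag at a log2 ratio of 1.43 and Ermap under the filter on low values. Without either of the 2 lanes of E7.25 or E7.75, the count at E7.75 over E7.25 stayed at 1.

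At 10 counts or more the members found were 1 (from 2) at E7.75, 3 (from 5) in E8.5 HPCs, 0 (from 1) in E9.5 HPCs and 0 (from 3) in Mac. Thinned cells gave 1 at E7.75, and all captured cells gave 4. Found at 25% of cells, the counts were 1 at E7.75, 3 in E8.5 HPCs, 0 in E9.5 and in E10.5 HPCs, 5 (from 8) in E8.5 Mk and 1 in Mac. Leaving out a lane gave 0 to 1 at E7.25, where Sptb reached 10% without lane 6, and 2 to 2 at E7.75. The mean number of members per cell at 10 counts or more was 0.068 (from 0.150) at E7.25, 0.464 (from 0.893) at E7.75, 0.904 (from 1.59) in E8.25, 1.00 (from 1.57) in E8.5 and 0.130 (from 0.348) in E9.5 HPCs, 0.08 (from 0.72) in Mac, and 0.0506 (from 0.114) and 0.0164 (from 0.0492) in E8.5 and E10.5 Endo. Thinned Mac cells held 0.28. Per kilobase of the longest transcript Ank1 was at 11.3 CPM in E8.5 EryP (from 6.98). For counts and shares with no other cause shown, the cause was not tested. Populations other than E7.25 and E7.75 had 1 lane, so none could be left out.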
